A study of Mus musculus with 2 samples.

Results

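The genes described here are 10 antioxidant genes: Hmox1, Nqo1, Gclc, Gclm, Srxn1, Txnrd1, Prdx1, Cat, Sod1 and Sod2. They were chosen by name, as targets of the transcription factor NRF2 and as enzymes that remove peroxide and superoxide, out of 22911 genes that the arrays name. They were read on all 13 of their probes in cultures started from mouse LKS+ cells. These are bone marrow (BM) cells without lineage markers and positive for Kit and Sca-1, among which the hematopoietic stem and progenitor cells (HSPCs) are found. Sorted cells from wild-type mice were first expanded in medium with stem cell factor, IL-6 and IL-3, and no later sort is described. The cultures then received spleen (SP) extracellular vesicles (EVs) at 150 μg/ml for 24 h. The EVs came either from CML mice, which carry BCR-ABL-transformed cells, or from normal mice as controls. The methods state that the CML donors had been irradiated and say nothing of the kind about the donors of control EVs, so that effects of leukemia and of irradiation in the donor cannot be told apart. The strain of the mice is not given for these arrays, and no array of cells without EVs was analyzed here. Each condition gave 1 Agilent array, labeled with cyanine 3, on the same slide, so that the comparison has no replicate check and carries no p-value.

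NRF2 is kept low in unstressed cells by KEAP1, which hands it to a CUL3 ubiquitin ligase. Electrophiles and oxidants release it, and with small MAF proteins it binds antioxidant response elements and raises genes for glutathione synthesis, thioredoxin reduction, quinone reduction and heme breakdown. BACH1 occupies many of the same elements as a repressor. Superoxide dismutases turn superoxide into hydrogen peroxide, which catalase, peroxiredoxins and glutathione peroxidases remove. Hematopoietic stem cells are sensitive to reactive oxygen species, and FOXO factors keep several of these enzymes expressed in them.

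The element that NRF2 recognizes was looked for in the promoters of the members, since several of them are known as its targets. Its core was taken as TGACNNNGC, read on both strands of the 300 bases from 250 before to 50 after a gene start, in the RefSeq promoters of GRCm38.p6. Of the 10 members 8 had a promoter there (Hmox1 and Gclc had none), and 5 of these held the core (62.5%), against 14.0% of all 27025 genes and 12.4% of all 32851 promoters. The windows below run 5′ to 3′ on the strand of the gene, with the match in capitals. In each it reads GCNNNGTCA, so that the element lies on the strand opposite to the gene. That of Gclm (chr3:122245397-122245457, + strand) starts 134 bases before the gene start, that of Prdx1 (chr4:116685440-116685500, +) 133, that of Txnrd1 (chr10:82859088-82859148, +; 1 of its 3 promoters) 92 and that of Sod1 (chr16:90220680-90220740, +) 56 bases before it. That of Srxn1 (chr2:152105526-152105573, +) starts at base 29 after it. Among the 5, only the match of Prdx1 overlaps the AP-1 motif TGACTCA.
Gclm: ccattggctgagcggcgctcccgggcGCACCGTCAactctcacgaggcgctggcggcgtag
Prdx1: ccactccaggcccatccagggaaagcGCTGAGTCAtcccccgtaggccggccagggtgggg
Srxn1: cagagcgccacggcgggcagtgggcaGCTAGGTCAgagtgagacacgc
Txnrd1: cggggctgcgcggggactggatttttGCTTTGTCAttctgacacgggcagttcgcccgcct
Sod1: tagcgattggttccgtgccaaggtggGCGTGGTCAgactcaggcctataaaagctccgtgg

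Besides control spots, each array holds 59305 spots with an intensity. With CML EVs 53.3% of them were well above background, with control EVs 54.4%, and no spot was saturated. Signals are given after scaling, which set the mean of an array to 2500 once the upper and lower 2% of spots were set aside. The brightness of a probe depends on its sequence, so that signals compare the 2 cultures for 1 probe and do not rank genes. Ratios set CML EVs over control EVs and are on the log2 scale. The methods' rule was followed for genes with several probes, of which the one brightest with CML EVs was used. A pair of errors can be read from the arrays, and neither covers differences between cultures or EV preparations. Over 272 probes placed repeatedly on both arrays with a log2 signal of 8 or more, the ratio of matched spots had a median SD of 0.03, with 95% of the SDs at or below 0.06. The error that the scanner software assigned to a spot was 10.0% of the signal for each of the 13 probes, which corresponds to 0.20 on the log2 ratio. Kit and Ly6a (Sca-1), by which LKS+ cells were sorted, and the stem and progenitor markers Cd34 and Flt3 were above background on both arrays. Of the B and T cell markers, Ms4a1, Cd3g and Cd8a were not, whereas Cd79b, Cd3e and Cd4 were. The neutrophil markers Mpo, S100a9, Camp and Ltf were above background on both arrays too, so that the cultures were not LKS+ cells alone by these markers.

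The 10 members were expressed in both cultures and differed little between them. All 10 were well above background on both arrays, with scaled signals from 413 to 43486 with CML EVs and from 433 to 43050 with control EVs. Of these, 5 had a positive and 5 a negative log2 ratio, from -0.12 for Gclm to 0.15 for Hmox1. Their median log2 ratio was -0.0025, beside 0.0065 over the 13412 genes that passed this filter on both arrays and 0.019 over the 7966 of these that were at least as bright as Nqo1, the dimmest member. As a threshold, a gene was counted when it was at least 25% higher with CML EVs or, by the same fold downward, at least 20% lower (a log2 ratio of 0.32 or more in size). Counted as higher was none of the 10 members, against 5.01% of all genes, and as lower none, against 5.25%. Among the genes at least as bright as Nqo1 the shares were 2.37% higher and 0.816% lower, so that a count of 0 of 10 lies near the background. The ratio of each of the 10 was smaller than the error of 0.20 from the scanner software. That error was the same share of the signal for dim and bright probes, and wider than the SDs between repeated spots. A ratio inside it therefore says little about a single member. Beyond 0.06, the size that 95% of the SDs between repeated spots did not exceed, lay the ratios of 6 members (Hmox1, Gclm, Srxn1, Gclc, Nqo1 and Sod2). That is 1 SD of a variable probe and no 95% interval. Beyond 2 median SDs, or 0.0677, lay 4 of them (Hmox1, Gclm, Srxn1 and Gclc).

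**Figure D1:**
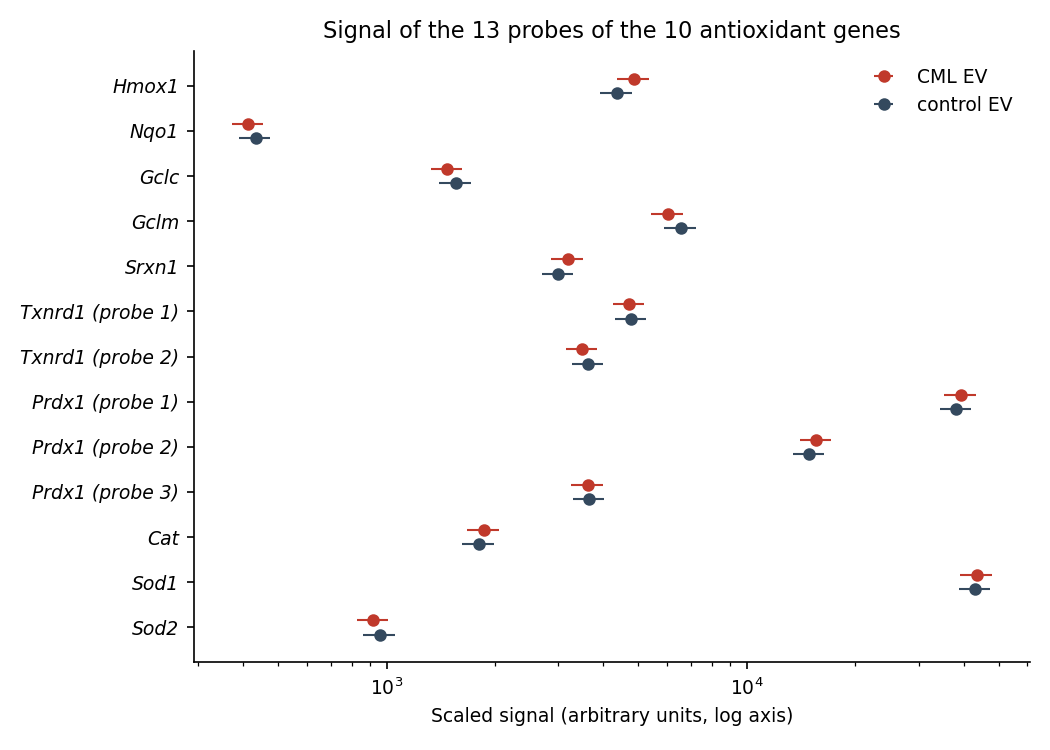
Scaled signal (arbitrary units, log axis) of the 13 probes of the 10 antioxidant genes in cultures started from LKS+ cells. CML EVs are red and control EVs dark blue. Each point is 1 spot of 1 array, and bars are the error of the signal from the scanner software, 10.0% for each probe. The 2 points of each probe lie close together and their bars overlap, from Nqo1 (413 with CML EVs, 433 with control EVs) to Sod1 (43486 with CML EVs, 43050 with control EVs).

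Of the classic NRF2 targets, heme oxygenase 1 (Hmox1), which splits heme into biliverdin, carbon monoxide and iron, had the highest ratio of the 10. Its signal was 4851 with CML EVs and 4359 with control EVs, 11.3% higher or 1.11-fold (log2 ratio 0.15). Of all genes measured, 30.1% lay farther from 0 than Hmox1. Among the genes at least as bright as Nqo1, 82.2% lay as close to 0 as Hmox1 or closer. The quinone reductase gene Nqo1 had a signal of 413 with CML EVs and 433 with control EVs, a log2 ratio of -0.07, and 61.2% of all genes lay farther from 0. These 2 common readouts of NRF2 activity thus had ratios of opposite sign, except with each array scaled to its median, where Nqo1 had a log2 ratio of 0.0026.

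Both subunits of glutamate-cysteine ligase, the enzyme of the first step of glutathione synthesis, had negative ratios, inside the threshold and the error of 0.20. The modifier subunit gene Gclm, with a motif in its promoter window, had a signal of 6030 with CML EVs and 6554 with control EVs, or 1.09-fold lower (log2 ratio -0.12), the lowest ratio of the 10. The catalytic subunit gene Gclc had a signal of 1474 with CML EVs and 1558 with control EVs (log2 ratio -0.08). Under each of the 9 alternatives run both stayed below 0, between -0.15 and -0.05 for Gclm and between -0.13 and -0.0093 for Gclc.

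The thioredoxin arm had ratios close to 0. Sulfiredoxin (Srxn1), which restores overoxidized peroxiredoxins, had a signal of 3182 with CML EVs and 2999 with control EVs, or 1.06-fold higher (log2 ratio 0.09). Thioredoxin reductase 1 (Txnrd1), which reduces cytosolic thioredoxin with NADPH, had a signal of 4718 with CML EVs and 4782 with control EVs (log2 ratio -0.02), and a second probe for the same transcript had 3497 with CML EVs and 3633 with control EVs (-0.06). Prdx1, an abundant cytosolic peroxiredoxin, was read by 3 probes. The brightest had 39245 with CML EVs and 38137 with control EVs (log2 ratio 0.04), and the others had 15576 with CML EVs and 14920 with control EVs (0.06), and 3619 with CML EVs and 3647 with control EVs (-0.01). The sign of Prdx1 thus depended on the probe. With median scaling Txnrd1 had a log2 ratio of 0.05.

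Catalase and the superoxide dismutases had ratios near 0. Catalase (Cat), the peroxisomal enzyme that splits hydrogen peroxide, had a signal of 1860 with CML EVs and 1802 with control EVs (log2 ratio 0.05). The cytosolic copper and zinc enzyme Sod1 had 43486 with CML EVs and 43050 with control EVs, a log2 ratio of 0.01. The mitochondrial manganese enzyme Sod2, which NF-kB also induces, had 918 with CML EVs and 957 with control EVs (-0.06), and 0.010 with median scaling. Sod3, the secreted form, was not above background on either array, and Ccs, the copper chaperone of Sod1, had a log2 ratio of 0.07.

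**Figure D2:**
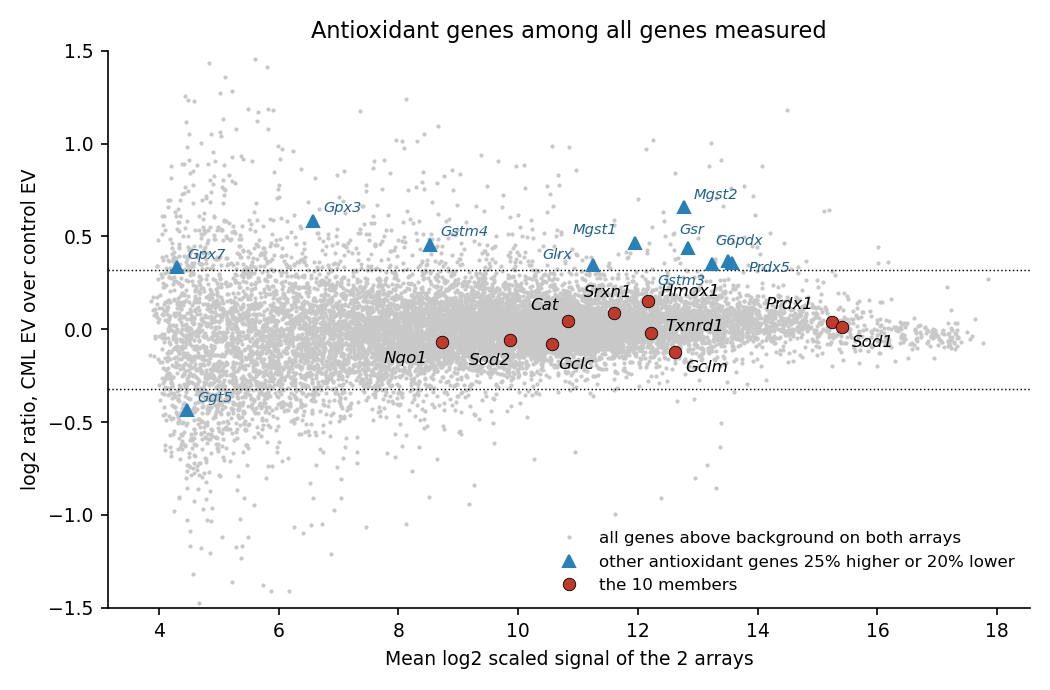
Vertical axis, log2 ratio (CML EVs over control EVs); horizontal axis, log2 scaled signal averaged over both arrays; grey points are the 13412 genes well above background on both arrays (24 lie beyond the vertical axis), red circles the 10 members, blue triangles the 11 other antioxidant genes past the threshold, and dotted lines mark 25% higher and 20% lower. The red circles lie between -0.12 and 0.15, inside the dotted lines, and 10 of the 11 triangles lie above the upper line.

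Members with the motif in their promoter window and members without it both had medians close to 0. The 5 that held it had a median log2 ratio of 0.015 and the 3 that did not (Cat, Nqo1 and Sod2) one of -0.06. Over all genes the medians were 0.0082 for 1765 measured genes that held it and 0.0090 for 8964 that did not. Counted as higher were 4.82% of the genes with the motif and 5.0% of those without it, and as lower 3.74% and 5.09%. A match is a description of the letters in this window and no record of binding.

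The regulators of the pathway lay close to 0 as well. Of 10 genes, all above background, 7 had a positive and 3 a negative ratio, none passed the threshold, and the median log2 ratio was 0.02. Nfe2l2, which encodes NRF2, had a signal of 3424 with CML EVs and 3221 with control EVs (log2 ratio 0.09). Keap1 had 3181 with CML EVs and 3164 with control EVs (0.0078), and Bach1 had 737 with CML EVs and 748 with control EVs (-0.02). The farthest from 0 were Sqstm1 (0.11), whose product p62 binds KEAP1, the small MAF gene Mafg (0.10) and the ligase subunit gene Rbx1 (0.10). NRF2 is controlled mainly through the stability of its protein, which arrays do not measure.

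Outside the 10, a minority of the antioxidant genes passed the threshold, most of them higher with CML EVs. The 11 pathway lists together hold 111 genes, the 10 members included. Of the 111, 102 could be compared, 8 were above background on neither array, and 1 (Gsta1) had no named probe. Of the 102, 10 were counted as higher (9.80%, against 5.01% of all genes) and 1 as lower (0.980%, against 5.25%). Among the 82 at least as bright as Nqo1 these were 7 (8.54%, against 2.37%) and 0 (against 0.816%). The median log2 ratio of the 102 was 0.014, beside 0.0065 over all genes. Without the members, 92 genes were compared, of which 10 were higher (10.9%) and 1 lower (1.09%), with a median of 0.015. At 1.5-fold, 1 was higher and 0 were lower, where 1.52% of all genes were higher and 1.18% lower. With each array scaled to its median, 12 genes of the lists were counted as higher and 1 as lower, where 7.38% of all genes were higher and 3.50% lower. With normexp background correction and quantile normalization 8 were higher and 0 lower, where 2.47% of all genes were higher and 1.19% lower.

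Glutathione transferases, which join glutathione to electrophiles, held 4 of the 10 higher genes among 17 compared, with a list median of 0.03. The microsomal transferase gene Mgst2 had the highest ratio of all 102, with a signal of 8724 with CML EVs and 5535 with control EVs, 1.58-fold higher. Mgst1 had 4669 with CML EVs and 3380 with control EVs (1.38-fold, a log2 ratio of 0.47), and its other probe gave 0.33. Of the mu class, Gstm4 had 432 with CML EVs and 315 with control EVs (1.37-fold) and Gstm3 had 10869 with CML EVs and 8519 with control EVs (1.28-fold). Mu class genes are close in sequence and probe letters were not in the files, so that these 2 values may share signal. Also of the mu class, Gstm1 had a log2 ratio of 0.27 (0.36, past the threshold, by its other probe) and Gstm5 one of -0.04 (0.12 by its other probe). The list was not uniform: 7 of the 17 had a negative ratio, among them Gsta3 (-0.18), Mgst3 (-0.12) and Gstk1 (-0.12). Gstp1, Gsto1 and Gstt1 had log2 ratios of 0.03, -0.01 and 0.03.

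Among genes of glutathione synthesis and recycling, those past the threshold were not the ligase subunits. Of 12 genes compared, 2 were counted as higher and 1 as lower, and the median log2 ratio was -0.0056. Glutathione reductase (Gsr), which regenerates glutathione with NADPH, had a signal of 8521 with CML EVs and 6302 with control EVs, 1.35-fold higher. Glutaredoxin (Glrx) had 2740 with CML EVs and 2155 with control EVs, 1.27-fold higher. Gss, of the second step of synthesis, had a log2 ratio of 0.05, and the cystine transporter gene Slc7a11, an NRF2 and ATF4 target, one of -0.01 (0.16 by its other probe). Ggt5 was 1.35-fold lower at signals of only 19.0 with CML EVs and 25.8 with control EVs.

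NADPH, which both glutathione reductase and thioredoxin reductase consume, is supplied largely by the pentose phosphate pathway. Of 8 genes of NADPH supply, which include Me1, Idh1 and Idh2 outside that pathway, 7 had a positive ratio, against 52.0% of all genes. The median log2 ratio of the 8, 0.16, was the highest of the 11 lists. G6pdx, for the first enzyme of the pentose phosphate pathway, had a signal of 13222 with CML EVs and 10263 with control EVs, 1.29-fold higher. By the probes used it was the only 1 past the threshold. Pgd had a ratio of 1.17-fold and Taldo1 of 1.12-fold. Idh1 had a log2 ratio of 0.16 by the probe used and of 0.66, past the threshold, by its other probe, and Tkt had 0.15. When probes of the same gene were averaged, 11 genes of the lists were counted as higher in place of 10. Me1, an NRF2 target, had a log2 ratio of -0.0096.

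Among peroxide-removing enzymes 3 were past the threshold, all higher. Of 6 peroxiredoxins 1 was, namely Prdx5, with a signal of 13811 with CML EVs and 10801 with control EVs, 1.28-fold higher, whereas Prdx6 had a log2 ratio of 0.08, Prdx3 one of -0.07 and Prdx2 one of -0.02. Of 7 genes for catalase and glutathione peroxidases 2 were higher, both dim. Gpx3, the plasma form, had 117 with CML EVs and 78.0 with control EVs (log2 ratio 0.58), and Gpx7 had 22.2 with CML EVs and 17.6 with control EVs (1.26-fold). Gpx2 had 94.2 with CML EVs and 116 with control EVs, a log2 ratio of -0.30. The bright Gpx1 had a log2 ratio of 0.14 and Gpx4, which protects membrane lipids, one of 0.05.

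In 5 further lists no gene passed the threshold in either direction. These were the NRF2 regulators, the thioredoxin system (8 genes, median -0.0074), the superoxide dismutases (3 genes, 0.015), heme, iron and quinone handling (9 genes, 0.04) and the FOXO and sestrin regulators (9 genes, -0.03). The further NRF2 targets, 13 genes with a median of -0.03, had none past it either, with Tsku at -0.30, Aldh3a1 at -0.28 and Abcc4 at 0.28. Txnip, the inhibitor of thioredoxin, had a log2 ratio of -0.09 and Txn2 one of -0.08. Nqo2 had 0.23, but another of its probes -0.21, and Hmox2, the constitutive heme oxygenase, had 0.10. The ferritin genes Fth1 and Ftl1, which are NRF2 targets too, had -0.10 and -0.04. Foxo1 had -0.27, Trp53inp1 0.10 (-0.15 by its other probe), Atm -0.06 (0.04 by its other probe) and Foxo3 -0.03.

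**Figure D3:**
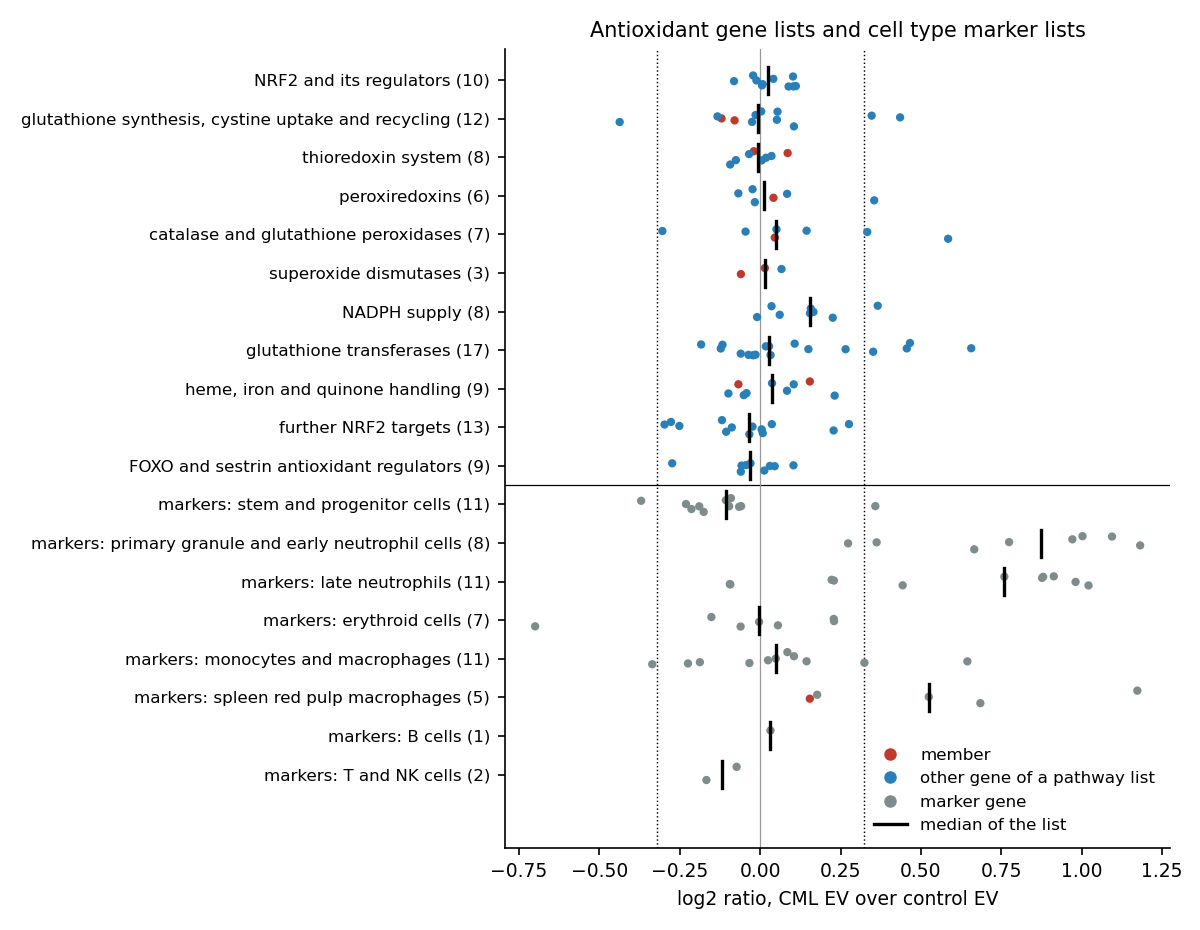
log2 ratio (CML EVs over control EVs) of genes of 11 antioxidant lists (above the line) and 8 lists of cell type markers (below it); each point is 1 gene well above background on both arrays, with their number in parentheses, red points are members, black bars are medians and dotted lines mark 25% higher and 20% lower. The medians of the antioxidant lists lie between -0.03 and 0.16, while those of the primary granule and late neutrophil markers lie at 0.87 and 0.76.

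Most markers of maturing neutrophils were higher with CML EVs as well. Of 8 primary granule and early neutrophil markers compared, 7 were past the threshold upward, against 5.01% of all genes. The summed signal of the 8 was 430206 with CML EVs and 324498 with control EVs. Elane was 2.27-fold and Fcnb 2.14-fold higher. Of 11 late neutrophil markers 7 were, with a sum of 320515 with CML EVs and 243091 with control EVs, led by Chil3 at 2.03-fold and Pglyrp1 at 1.97-fold. Of the 11, 2 had a negative log2 ratio (Mmp8 and Cxcr2, both -0.09), and S100a9 (0.23) and Retnlg (0.22) were inside the threshold. Mmp9 was not above background on either array, and Ly6g and Azu1 had no named probe. Of 11 markers of stem and progenitor cells 10 had a negative ratio (median log2 ratio -0.11), with a sum of 50134 with CML EVs and 55066 with control EVs. By the probes used, 1 (Ly6a) was higher past the threshold and 1 (Slamf1, -0.64 by its other probe) lower. By their other probes Cd34 (-0.35) and Meis1 (-0.43) were past it downward too, whereas other probes of Cd48 and Myb stayed inside it. In such bulk cultures a different share of a cell type and a different amount of RNA per cell cannot be told apart. The part of these markers in the ratios of Mgst2, Mgst1, Gsr, Glrx, Prdx5, G6pdx and the others was not tested.

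Hmox1 also marks macrophages of the splenic red pulp, which recycle heme. Of the 6 markers of these cells, Hmox1 included, 5 were compared and 3 were counted as higher (Vcam1, Slc40a1 and Spic), against 5.01% of all genes. Vcam1 had a signal of 247 with CML EVs and 110 with control EVs. Slc40a1 (ferroportin) had 481 with CML EVs and 299 with control EVs, and Spic had 88.9 with CML EVs and 61.8 with control EVs. The sum of the 5 was 7209 with CML EVs and 6192 with control EVs, and Cd163 was not above background on either array. Of 11 markers of monocytes and macrophages 2 were higher (Ly6c2 at 1.56-fold and Fcgr1 at a log2 ratio of 0.32) and 1 lower (Mrc1 at 1.26-fold). Their median log2 ratio was 0.05, and 4 had a negative ratio, Ccr2 (-0.22) among them. The sum was 82515 with CML EVs and 64591 with control EVs, of which Ly6c2 alone made up 47021 with CML EVs and 30081 with control EVs. Cat, Sod1 and Prdx2 are abundant in red cell precursors. Of 7 erythroid markers none was counted as higher by the probes used, with Klf1 at a log2 ratio of 0.23 and Hba-a1 at 0.23. Epor had -0.06, but 0.49, past the threshold, by its other probe, and Tfrc had 0.06 (-0.25 by its other probe). Of the 7, 1 (Hbb-bt, 1.62-fold) was lower. The sum was 9116 with CML EVs and 8999 with control EVs, and Alas2 was not above background on either array. The part of either list in the values of the members was not tested. Of B cell markers 1 of 5 was compared (Cd79b, 0.03), and of T and NK cell markers 2 of 6 (Cd3e, -0.07, and Cd4, -0.17).

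The direction of some of the ratios depended on how the arrays were scaled, but under none of the 9 alternatives did a member pass the threshold. The highest value of any member was 0.22, for Hmox1 with median scaling, and the lowest -0.15, for Gclm with quantile normalization. Hmox1, Srxn1, Prdx1, Cat and Sod1 stayed above 0 and Gclm and Gclc below 0 under all 9, while Nqo1, Sod2 and Txnrd1 turned positive with median scaling. The dimmest probe of Prdx1, never used alone, was at -0.01. Not all 9 are separate checks. The deposited values, the probe brightest with control EVs and the keeping of outlier spots gave each member its main value. Averaging probes did so for members with 1 probe.

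**Figure D4:**
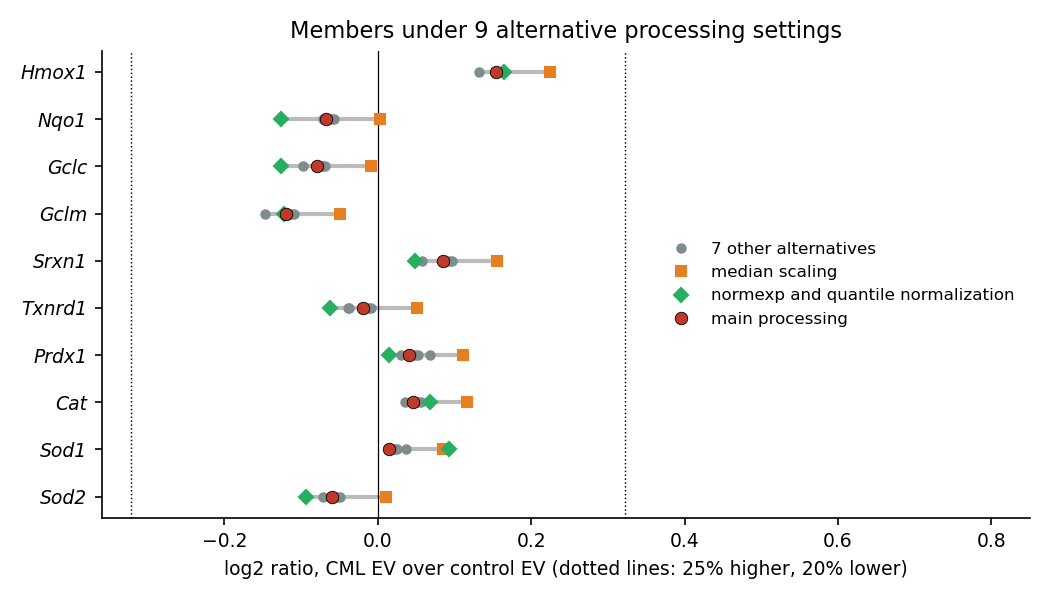
log2 ratio, CML EVs over control EVs, for the 10 members as reported (red) and under 9 alternative ways of processing the arrays: median scaling (orange squares), normexp with quantile normalization (green diamonds) and 7 others (grey circles); the grey line spans the lowest and highest value and dotted lines mark 25% higher and 20% lower. The values lie between -0.15 and 0.22, inside the dotted lines.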

How the data were processed

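Gene expression was measured on 2 one-color arrays, 1 of cultured LKS+ cells with CML EVs and 1 with control EVs. The authors' deposited scanner files hold a background-subtracted intensity for each spot, made with Agilent Feature Extraction 12.0.3.1 per the submitters' processing notes, with its error and flags. The deposited value table equals this intensity times 1 factor per array (0.947 for CML EVs and 0.942 for control EVs), on a linear scale, to within 5.0e-10 of the value.

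Control spots and outlier spots were left out, the arrays were scaled as the study's methods describe, and spots of the same probe were averaged as log2 values. Gene names came from RefSeq accessions without version (GRCm38.p6; 32994 of 56604 probes). Gene coordinates are not given, since the arrays were designed on another assembly; those of promoter windows are of GRCm38.p6. Genes compared were well above background on both arrays. Named were the 10 members; of each pathway list every gene past the threshold of 25% higher or 20% lower and the 3 with the largest absolute ratio; Nfe2l2, Keap1 and Bach1; and of marker lists the 2 largest and the defining markers. Other genes named from the lists were chosen after their values were seen. Some genes of the marker lists are not reported here. The members and lists were chosen with earlier results of these data known. With 1 array per condition no test across samples was made, and the number of arrays limits the precision. The counting of folds was tested on simulated data. Alternatives were other scalings (75th percentile, median, mean of all spots, quantile), normexp with limma 3.58.1 (offset 50), the deposited values, other rules for probes, outlier spots, the filter on dim probes and folds of 1.5 and 2. Calculations ran in R 4.3.3 and in Python 3.11.15 with pandas 2.3.3 and numpy 2.4.6.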

Additional observations from a re-analysis of the deposited data

How the results depend on the processing

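No paired analysis was possible because CML EVs and control EVs had 1 array each. The median log2 ratio of the members, -0.0025, was 0.068 with median scaling, a shift common to all genes; the log2 ratios of Nqo1 (0.0026), Sod2 (0.010) and Txnrd1 (0.05) then turned positive. None of the 10 members was at least 25% higher or 20% lower under any alternative run. Of the genes of the pathway lists, 10 were at least 25% higher and 1 was at least 20% lower; at 1.5-fold these were 1 and 0, as the higher threshold requires, and with normexp and quantile normalization 0 were lower. The 1 lower gene, Ggt5, then had a log2 ratio of -0.06 and the dim Gpx7 one of 0.06; the cause was not tested. Of the 10 higher genes, 7 (Gsr, Gpx3, G6pdx, Gstm3, Gstm4, Mgst1 and Mgst2) stayed past the threshold under all 9 alternatives, Glrx and Gpx7 under 8 and Prdx5 under 7. Among these 9, the deposited values, the probe brightest with control EVs and the keeping of outlier spots gave each of these genes its main value, and so add no check. The alternatives for genes outside the 10 members, other than median scaling, normexp and the fold of 1.5 for the counts, were chosen after seeing the data. Signal limits the dim genes: below a log2 signal of 8 the SD between repeated spots was 0.16 over 11 probes.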
